A study of Homo sapiens with 3 samples.

Results

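CD24 and EPCAM are surface proteins by which mammary epithelial cells are commonly sorted into subpopulations. Their RNAs were 2 of the 110 endogenous genes counted in subpopulations of MCF10A, a non-tumorigenic, immortalised line of human breast epithelium. They were chosen by name, as the probes CD24 (NM_013230.2) and EPCAM (NM_002354.1), and not by their values. The samples are labelled stem, basal and luminal, with 1 library each. All are total RNA of this cell line, with no treatment or genotype in the labels, and by its title the study concerns how Slug, a transcription factor, regulates changes of cell state. Counts came from the NanoString nCounter, which hybridises a colour-coded probe to each RNA and counts the barcodes without amplification. The labels do not say how the cells were separated, so whether CD24 or EpCAM protein set the gates is not known here. A difference in the RNA of a gene used as a gate would not be a finding apart from the sort.

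CD24 encodes a small, heavily glycosylated protein held in the membrane by a glycosylphosphatidylinositol anchor. It is a ligand of P-selectin and of Siglec-10, and in breast cancer work low CD24 together with high CD44 is widely used to gate stem-like cells. EPCAM encodes a transmembrane adhesion molecule of epithelial cells that binds EpCAM on neighbouring cells and associates with claudin-7. In the human breast, EpCAM is high on luminal cells and low on basal cells, and it is used with integrin alpha-6 (CD49f) to separate these lineages.

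The endogenous counts summed to 792367 in the stem, 8891 in the basal and 9136 in the luminal library, so precision in every comparison was set by basal and luminal. Background, the mean plus 2 SD of 8 negative control probes, lay at 18.9, 1 and 1.83 counts in that order. The lowest value listed in basal and luminal was 1, which was read as a count of 0 or 1. In basal all 8 negative controls were listed at this 1, so any gene listed above 1 passed background there. Levels below are normalised counts, that is, counts per 100 of the geometric mean of 5 housekeeping genes. All intervals are 95% and cover counting error only. Since each subpopulation has 1 library, no spread between replicates exists, no test was possible and no p-value is given. The lineage markers did not all follow the labels. KRT8, a luminal keratin, and KRT5, a basal keratin, were abundant in all 3 libraries. For basal over luminal on the housekeeping scale, the basal keratin KRT14 had a log2 ratio of 0.48 (0.30 to 0.66). KRT17, also a basal keratin, went the other way, at -0.42 (-0.62 to -0.22). KRT5 stood at 0.14 (0.01 to 0.27), the median of the 79 genes above background, so it did not stand apart from the panel. That value is also within the counting error of the scale itself, a log2 half-width of 0.29. The luminal lineage genes KRT19, ESR1 and GATA3 were at the listed floor of 1 in both basal and luminal, so they could not separate these libraries. The panel held none of the endothelial, immune or adipocyte markers looked for.

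CD24 was counted 738 times in the stem, 4 times in the basal and 21 times in the luminal library. Its normalised count was 5.75 (5.34 to 6.17) in stem, 3.38 (0.92 to 8.65) in basal and 15.2 (9.42 to 23.3) in luminal. On this housekeeping scale luminal thus stood above both other libraries with intervals that did not overlap theirs, whereas the interval of basal enclosed that of stem. All 3 counts were above background, by 39.1-fold in stem, 4-fold in basal and 11.5-fold in luminal. In basal that background is the listed floor of 1, not a measured spread of the negative controls. As a share of the endogenous counts, CD24 made up 0.0931% (0.0865% to 0.100%) in stem, 0.0450% (0.0123% to 0.115%) in basal and 0.230% (0.142% to 0.351%) in luminal, by exact binomial intervals. Among the 105 genes other than housekeeping genes, ordered by count within each library, CD24 ranked 62nd in stem, 60th in basal and 42nd in luminal. That order needs no scale between libraries, and it placed CD24 higher in luminal than in stem and basal.

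EPCAM was counted 449 times in stem, was listed at 1 in basal and was counted 6 times in luminal. Its normalised count was 3.50 (3.18 to 3.83) in stem and 4.35 (1.60 to 9.46) in luminal, and the interval of luminal enclosed that of stem. In basal EPCAM was not above background. A count of 0 there allows a normalised count of up to 2.53, or 0.0337% of the endogenous counts, and a count of 1 has an upper limit of 4.71. EPCAM ranked 64th of 105 in stem and 62nd in luminal, while in basal it was 1 of the 31 genes listed at 1. These 31 genes also share a value of -6.89 for basal in the authors' deposited table of log2 values, so that the floor appears there as if it were a measured level. Because these are bulk RNA samples, fewer cells that carry EPCAM or CD24 and less of the RNA per cell cannot be told apart.

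**Figure D1:**
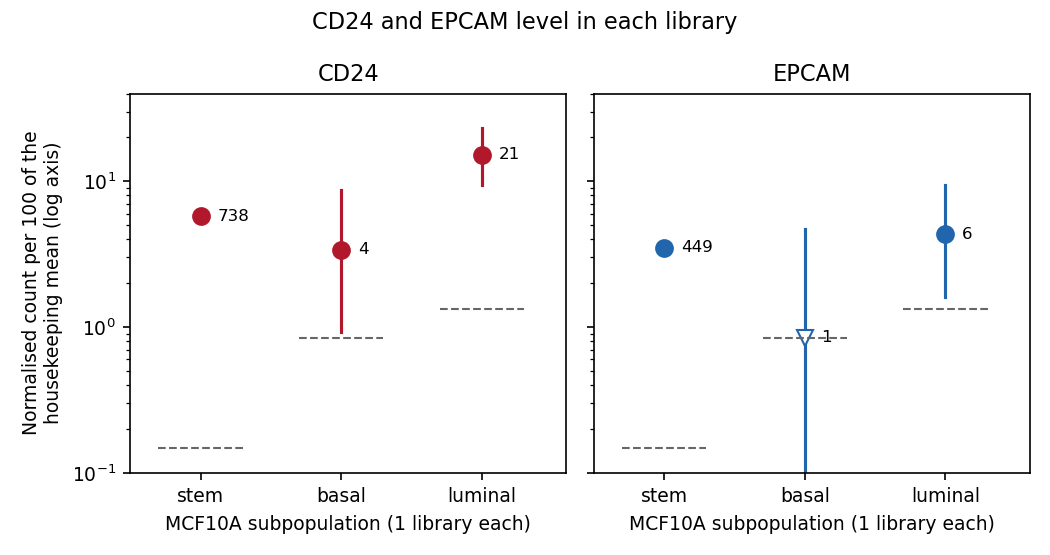
Normalised count (per 100 of the housekeeping geometric mean, log axis) of CD24 and EPCAM in the stem, basal and luminal libraries, with 95% counting intervals as vertical lines, the raw count beside each point and the background of each library as a dashed line. CD24 in luminal (21 counts) lies above stem and basal, and the open triangle marks EPCAM in basal, listed at 1 and not above background, whose interval runs down to 0 off the axis.

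Between stem and basal, on the housekeeping scale, neither gene could be separated from equal levels. The counts of CD24, 738 in stem against 4 in basal, gave a log2 ratio of 0.77 (-0.60 to 2.65). At the stem level, 6.80 CD24 counts would be expected in basal, where 4 were found. EPCAM, with 449 counts in stem against a listed 1 in basal, had a log2 interval that ran from -0.44 with no upper bound. At the stem level, 4.14 EPCAM counts would be expected in basal. That is within the upper limit of 5.57 for a count of 1, but above the one-sided limit of 3 for a count of 0. The outcome for EPCAM thus rests on how the listed 1 is read. Genes were called different when they were at least 2-fold apart, provided that the interval excluded 1 and that either library was above background. That held for 3.19% of the genes for stem over basal and for 0 of the 2 surface markers.

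Between basal and luminal, both genes had lower counts in basal. CD24, counted 4 times in basal against 21 times in luminal, was 4.50-fold lower in basal (log2 ratio -2.17, -4.17 to -0.60) and met the rule. At the luminal level, 18.0 CD24 counts would be expected in basal. EPCAM was listed at 1 in basal and had 6 counts in luminal, and its log2 interval reached up to 0.68 with no lower bound, so it did not meet the rule. At the luminal level, 5.15 EPCAM counts would be expected in basal. Among the 71 genes above background in both libraries, CD24 had the lowest log2 ratio, a place that does not depend on the scale between libraries. EPCAM was given no place in that order, since in basal it was not above background. The rule was met by 2.53% of the genes, all lower in basal, so that 1 of the 2 surface markers was among 2 genes in all. CD24 no longer met it with intervals that leave 0.1% outside, or when the libraries were scaled by positive controls (-0.98).

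Between stem and luminal, on the housekeeping scale, CD24 was lower in stem and EPCAM was not separable. CD24, with 738 counts in stem against 21 in luminal, was 2.65-fold lower in stem (log2 ratio -1.41, -2.03 to -0.70), a direction that turned to 0.25 on the positive control scale. At the stem level, 7.93 CD24 counts would be expected in luminal, where 21 were found. EPCAM, with 449 counts in stem against 6 in luminal, stood at -0.31 (-1.45 to 1.14), and 4.82 counts would be expected in luminal at the stem level. On the positive control scale EPCAM was higher in stem, at 1.34, and was among the 70 of 94 genes that met the rule. Of the 76 genes above background in both libraries, CD24 had the next to lowest log2 ratio and EPCAM the 14th lowest. The rule was met by 4.26% of the genes, of which 2.13% of all genes were higher and 2.13% lower in stem, and by 1 of the 2 surface markers.

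**Figure D2:**
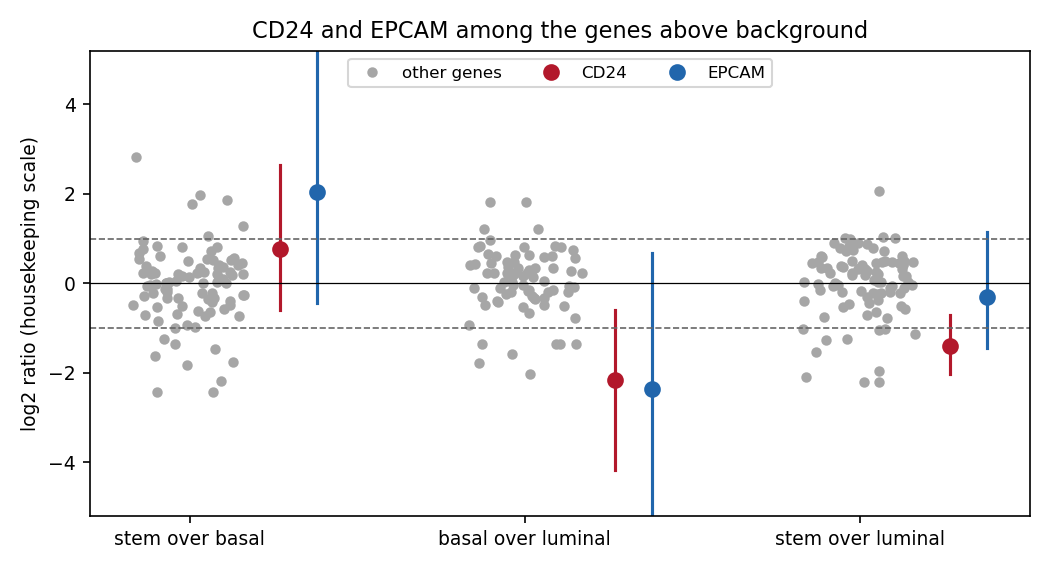
Log2 ratio on the housekeeping scale, in each of the 3 comparisons, of every gene above background in either library (grey points, spread sideways at random), with CD24 and EPCAM and their 95% counting intervals in colour and dashed lines at 2-fold. CD24 lies clear of 0 for basal over luminal (-2.17) and stem over luminal (-1.41), and EPCAM, plotted with its listed 1 taken as a count, crosses 0 in all 3, with intervals that run off the axis where basal is compared.

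Whether the pair moved alike can be read without any scale, from the number of CD24 counts per EPCAM count within each library. It was 1.64 in stem and 3.50 in luminal. Probes differ in how well they capture their RNA, so this figure compares libraries and not the levels of the 2 genes. The log2 ratio of these for stem over luminal was -1.09 (-2.70 to 0.28), so a different change of the 2 genes was not detectable at this depth. CD24 made up 62.2% (59.3% to 64.9%) of the summed counts of the pair in stem and 77.8% (57.7% to 91.4%) in luminal. In basal the pair summed to at most 5 counts, and its share of CD24 had an interval from 28.4% to 100%. For basal over luminal the log2 ratio had a lower limit of -3.52 and no upper one, and for stem over basal an upper limit of 2.06 and no lower one.

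The direction of some of these differences depended on how the libraries were scaled. The 6 positive control probes count spiked RNA that does not follow the amount of sample. Their counts summed to 69670 in stem, 776 in basal and 2795 in luminal, so they too were far lower in basal and luminal. The cause was not tested. They were relatively abundant in luminal, with 11.4 endogenous counts per positive control count in stem, 11.5 in basal and 3.27 in luminal. Scaling by their geometric mean added 0.47 to every log2 ratio of stem over basal, 1.19 for basal over luminal and 1.66 for stem over luminal. CD24 then came to 0.25 for stem over luminal, a turned sign, and to -0.98 for basal over luminal, each with an interval that included 1. EPCAM came to 1.34 for stem over luminal, with an interval that excluded 1, and was among the 70 of 94 genes that met the rule there. For stem over basal EPCAM was also among the 11 of 94 genes that met the rule on this scale. It was higher in stem, at 2.51 with the listed 1 taken as a count. Its ratio in that comparison has no upper bound on any scale, because of the listed 1 in basal. Since the RNA input of each lane is unknown, the files do not settle which scale is right. Across 11 scales other than the housekeeping mean, the interval of CD24 excluded 1 in 9 for basal over luminal and in 9 for stem over luminal. In both cases the exceptions were the positive control scales. The 9 are not independent checks: 5 were the housekeeping mean with 1 gene left out. The others were total count, median of ratios, and the counts of KRT8 and VIM, which were not planned. That of EPCAM for basal over luminal excluded 1 in 0 of 11. For stem over basal it did so in 3 of 11, with all 6 positive controls and relative to KRT8 or VIM.

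Setting the surface markers against another epithelial gene or a mesenchymal gene of the same library gives the same comparison with no housekeeping or spiked reference. These references were chosen after the data were seen. Per 1000 counts of KRT8, CD24 had 8.87 counts in stem, 3.72 in basal and 16.9 in luminal. For basal over luminal the log2 ratio was -2.19 (-4.20 to -0.61). For stem over luminal it was -0.93 (-1.56 to -0.23), and for stem over basal 1.25 (-0.11 to 3.14). Per 1000 counts of VIM, the mesenchymal intermediate filament vimentin, CD24 had 52.5 counts in stem, 19.7 in basal and 120 in luminal. For stem over basal the log2 ratio of CD24 relative to VIM was 1.41 (0.03 to 3.31). The references differed between these libraries themselves: for stem over basal on the housekeeping scale, VIM stood at -0.65 (-0.85 to -0.44) and KRT8 at -0.49 (-0.57 to -0.40), which adds as much to any ratio taken relative to them. EPCAM had 5.39 counts per 1000 of KRT8 in stem and 4.84 in luminal, or 0.16 (-0.98 to 1.61) on the log2 scale. Per 1000 of VIM it had 31.9 in stem and 34.3 in luminal, or -0.10 (-1.26 to 1.37). For stem over basal the interval of EPCAM began at 0.05 relative to KRT8 and at 0.19 relative to VIM, against -0.44 on the housekeeping scale, a shift close to the difference in the references.

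**Figure D3:**
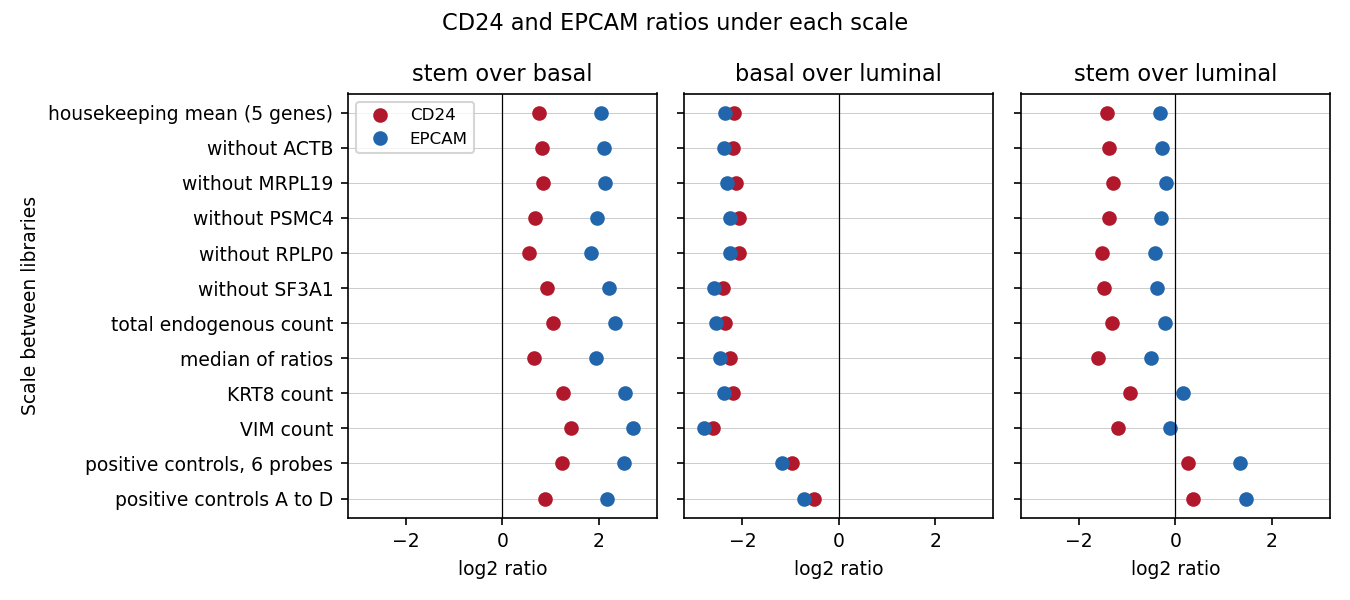
Log2 ratio of CD24 and EPCAM in each comparison (panels) under each scale between libraries (rows), with the listed 1 of EPCAM in basal taken as a count. CD24 keeps its side of 0 in the panels for stem over basal and basal over luminal, where the points of EPCAM rest on that listed 1, while for stem over luminal CD24 moves to 0.25 and 0.37 and EPCAM to 1.34 and 1.46 under the positive controls.

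Genes of epithelial adhesion and lineage give the setting of these values. Of 21 epithelial adhesion and junction genes looked for, 11 were on the panel and 7 were above background. For basal over luminal, 1 of the 7 was lower by the rule and 0 were higher, with a median log2 ratio of -0.18, against 0.14 over all 79 genes above background. The lower one was ESRP1, an epithelial splicing regulator, whose 4 counts in basal against 19 in luminal came to -2.03 (-4.04 to -0.44). For stem over basal, 1 of the 7 was higher by the rule and 0 were lower, with a median of 0.55, against 0.03 over all 94 genes. That gene was again ESRP1, at 2.81 (1.46 to 4.69). For stem over luminal, 0 of the 7 met the rule, and the median was 0.32, against 0.16 over all 94 genes.

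For stem over luminal, ESRP1 stood at 0.79 (0.14 to 1.52) and EPCAM at -0.31 (-1.45 to 1.14), intervals that overlap, and the difference between the genes was not tested. CLDN7, the claudin that associates with EpCAM, had 318 counts in stem, 2 in basal and 7 in luminal. Its log2 ratio was 0.55 for stem over basal (-1.31 to 3.60), -1.59 for basal over luminal (-4.89 to 0.81) and -1.04 for stem over luminal (-2.09 to 0.29), each within counting error of 0. The junction genes JUP, which encodes plakoglobin, and CDH3, which encodes P-cadherin, had log2 ratios for stem over basal of 0.73 (0.29 to 1.20) and 0.80 (0.34 to 1.31), both under 2-fold with intervals above 0. DSP, which encodes desmoplakin, had an interval below 0 in the same comparison, at -0.19 (-0.36 to -0.01). The protease inhibitor genes SPINT1 at -0.34 (-1.32 to 0.88) and SPINT2 at 0.14 (-0.16 to 0.45) were within counting error of 0. CLDN3 and CLDN4, further claudins, were listed at 1 in basal and luminal and had 15 counts each in stem, below its background.

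Of 17 luminal lineage genes, 6 were on the panel, of which 4 were listed at 1 in both basal and luminal. Above background were 5 for stem over basal, 2 for basal over luminal and 5 for stem over luminal. The rule was met by 0 in any comparison, but the listed 1 left the intervals of those 4 unbounded on at least 1 side. FOXA1, a luminal transcription factor, had 298 counts in stem, 3 in basal and 5 in luminal. KRT8 had a log2 ratio of 0.02 (-0.10 to 0.14) for basal over luminal, the comparison in which CD24 stood at -2.17. Of 14 surface proteins used in sorting besides CD24 and EPCAM, only NT5E (CD73) was on the panel. It had 3182 counts in stem, 27 in basal and 37 in luminal, and its intervals included 1 in all 3 comparisons. CD44 and ITGA6, the usual partners of CD24 and EPCAM in such gates, were not on it. Of 11 basal lineage genes, 6 were on the panel and 0 met the rule. Of 12 mesenchymal genes, VIM and ZEB1 were on it and neither met the rule. VIM was higher in basal than in luminal at 0.44 (0.14 to 0.74) and lower in stem than in basal at the -0.65 given above, both under 2-fold.

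**Figure D4:**
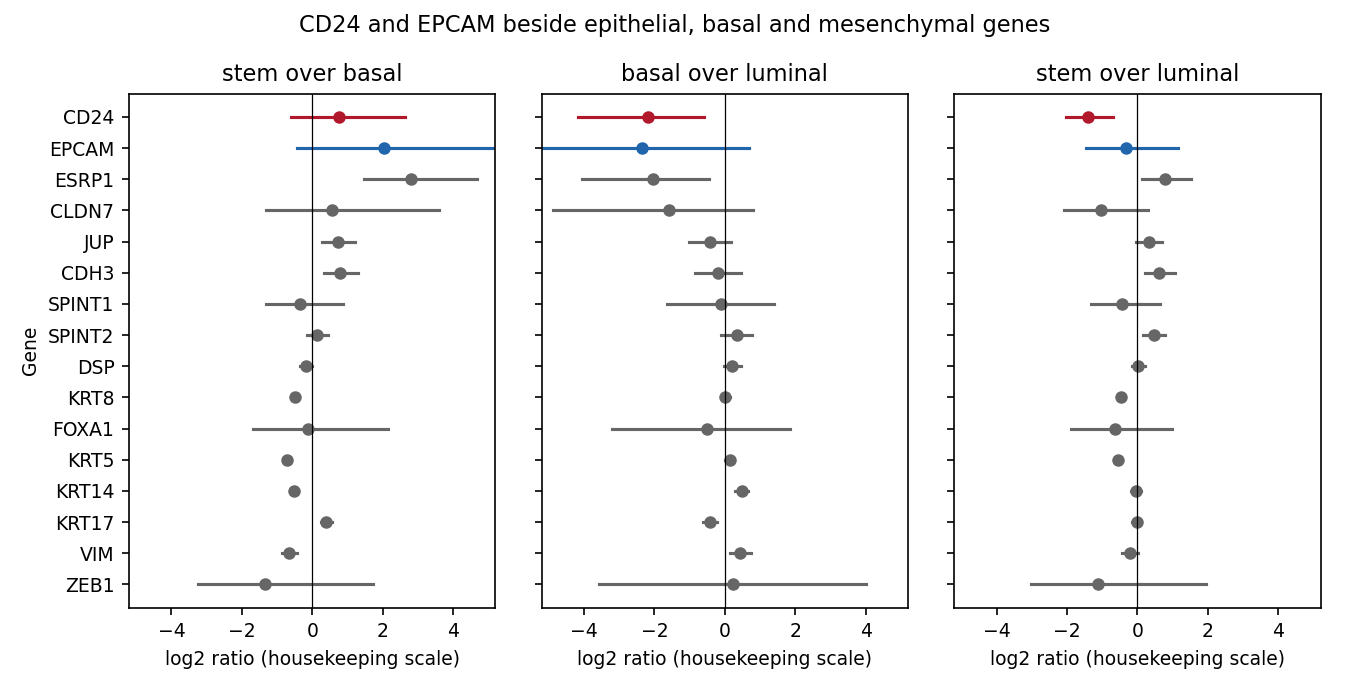
Log2 ratio on the housekeeping scale with 95% counting intervals of CD24, EPCAM and 14 genes of epithelial adhesion, luminal and basal lineage and mesenchyme, in the 3 comparisons (panels), with intervals that run off the axis where EPCAM was listed at 1. In the basal over luminal panel CD24 (-2.17) and ESRP1 (-2.03) are the genes more than 2-fold apart whose intervals exclude 0.

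The genes closest to CD24 in profile were sought among the other 70 genes above background in all 3 libraries, by the root mean square distance between centred log2 profiles over the 3 libraries. The 5 closest lay at 0.24 to 0.71, and CLDN7 was the closest. Next came VEGFA, an angiogenic growth factor, at 0.54, with 1415 counts in stem, 9 in basal and 20 in luminal, and VAMP8, a vesicle fusion protein, at 0.66. EPCAM could be compared over stem and luminal only, where 75 other genes were above background. The 5 closest log2 ratios lay within 0.09 of its own, with DDR1, a collagen receptor kinase, at -0.30. The counting interval of EPCAM is far wider than these distances, and profiles over 3 libraries or fewer carry little to tell genes apart.

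The CD24 probe has a limit of its own. RefSeq annotation of GRCh38.p14 names 5 pseudogenes of CD24, and the probe sequences are not in the tables used here. Whether the probe also counts RNA of such copies was not tested.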

How the data were processed

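Raw barcode counts per probe were deposited with no normalization, per the file headers. The authors deposited log2 values for 105 genes, which could be recomputed to within 3.53e-09 from the raw counts, as log2 of each count divided by the geometric mean of 5 housekeeping genes (SF3A1, RPLP0, PSMC4, MRPL19 and ACTB). Image processing before the counts is not given in the sources used here. The labels name an RNA kit made for fixed, embedded tissue, although MCF10A is a cell line.

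Raw counts were divided by the housekeeping mean of their library. Ratios have exact Clopper-Pearson intervals, which condition on the summed count, and a ratio of ratios has the exact conditional interval of an odds ratio. A listed 1 was read as 0 or 1, whichever widened the interval. The interval takes the scale as exact; the scale's own counting error gives a log2 half-width of 0.23 for stem over basal, 0.29 for basal over luminal and 0.19 for stem over luminal. The 5 housekeeping genes differed among themselves by more, with an SD of their log2 ratios of 0.60, 0.55 and 0.37 in the same order. The interval and the rule were tested on simulated data. Python 3.11.15 and scipy 1.17.1 were used. Alternatives were other scales, background subtraction, fold limits of 1.5 and 3 and intervals that leave 0.1% outside.

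Genes were named by rule: CD24 and EPCAM, housekeeping genes, 5 gene lists, marker lists, the 5 closest profiles and the genes next in rank, of which a few are printed. The genes and lists were chosen with earlier results of these data known. Probe accessions were matched to RefSeq symbols of GRCh38.p14 without versions, and 109 of 110 matched; no genome build was named, so no coordinates are given.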

Additional observations from a re-analysis of the deposited data

How the results depend on the processing

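The 3 ratios of CD24 and that of EPCAM for stem over luminal have intervals bounded on both sides. Scales with 1 housekeeping gene left out shifted the ratios by far less than the width of these intervals, so those values could hardly fall outside. Of the 48 recomputed values of these 4 ratios, the deposited log2 values left aside, 43 stayed within the interval of the reported value. The other 5 all came from positive control scaling. With all 6 probes CD24 for stem over luminal came to 0.25 and EPCAM to 1.34. With probes A to D these came to 0.37 and 1.46, and CD24 for basal over luminal to -0.52. The cause was not tested. The number of genes that met the rule was 3 for stem over basal, 2 for basal over luminal and 4 for stem over luminal. With all 6 positive controls these became 11, 43 and 70, and with probes A to D 5, 55 and 70. At a limit of 1.5-fold they were 13, 9 and 13. For stem over basal the number was 8 by total count, 1 by median of ratios or without PSMC4, and 5 without MRPL19 or SF3A1. For basal over luminal it was 0 with intervals that leave 0.1% outside. For stem over luminal it was 2 without SF3A1, without RPLP0 and by median of ratios, 7 without MRPL19 and 0 at 3-fold. Background subtraction gave no value for EPCAM in basal, whose listed 1 equals the mean of the negative controls. With 4 and at most 1 counts in basal and 21 and 6 in luminal, depth limits every statement on those libraries. No paired analysis was possible because each subpopulation has 1 library and the result comes from no test.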
